A study of Mus musculus with 3 samples.

Results

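The genes described here are 8 targets and antagonists of Activin/Nodal signalling: Lefty1, Lefty2, Nodal, Tdgf1, Cer1, Smad7, Pmepa1 and Skil. They were taken by symbol from the platform annotation, and all 8 were found among 22180 genes, each on 1 probe set. Their log2 intensities were read from Affymetrix Mouse Gene 2.0 ST arrays over 3 cultures of the mouse embryonic stem cell (mESC) line EB3 and its derivative, with 1 array per culture. For the Activin+PD array, mESCs had been 64 days in Activin A at 20 ng/ml plus the MEK inhibitor PD0325901 at 2 µM. For the 2i array, mESCs had been 34 days in the same dose of PD0325901 plus the GSK3 inhibitor CHIR99021, also at 2 µM. The mEpiSC array held epiblast stem cells that had been induced from EB3 mESCs and received bFGF at 12 ng/ml along with Activin A at 20 ng/ml; the sources used here do not give their time in culture. N2B27 was the base medium of all 3. Activin A was therefore shared by the Activin+PD and mEpiSC cultures, PD0325901 by both mESC cultures, and neither bFGF nor CHIR99021 by any pair, so that no comparison changed 1 factor alone.

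Activin and Nodal bind type I and type II serine/threonine kinase receptors, which phosphorylate the transcription factors SMAD2 and SMAD3. These enter the nucleus with SMAD4 and act with partners such as FOXH1. Nodal, unlike Activin, also needs an EGF-CFC co-receptor, which in the early mouse embryo is Cripto, the product of Tdgf1. The pathway switches on its own inhibitors, among them the secreted Lefty proteins outside the cell and SMAD7 inside it, and this feedback limits Nodal signalling in the epiblast.

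With 1 array per culture no difference was tested, and "higher" and "lower" refer to these arrays. A gene was compared between 2 arrays where the brighter value was above that array's background, which is the 95th percentile of the 1405 probe sets for olfactory or vomeronasal receptors. This limit was an intensity of 45.4 in Activin+PD, 48.1 in 2i and 47.5 in mEpiSC cells. The only error available came from genes with a second probe set. Over 591, 600 and 613 such genes, a log2 difference had a spread of 0.244 between Activin+PD and 2i, 0.361 between mEpiSC and 2i, and 0.331 between both Activin A cultures. This probe set spread does not cover variation between cultures. All 8 naive markers were above background on both mESC arrays and 7 of 8 were at least 2-fold lower on the mEpiSC array than in 2i, while 4 of 6 primed markers were at least 2-fold higher there. In Activin+PD, 2 of the 6 were also at least 2-fold above 2i: Fgf5, an epiblast growth factor gene, at 135 against 48.4, and Otx2, at 225 against a level in 2i below background. The other 4 were within 2-fold. Dnmt3b was lower at 494 against 746, Zic2 stood at 454 against 492, Pou3f1 at 67.6 against 57.3 and Sox3 at 123 against 98.4. The summed intensity of all 6 was 1499 in Activin+PD and 1489 in 2i. Whether primed markers and feedback genes were linked in that comparison was not tested. Fibroblast markers, which would show feeder cells, were above background for 5 of 8 genes on every array, with a summed intensity between 432 and 640 that was highest for mEpiSC. Twist1, the only fibroblast marker at least 2-fold apart in mEpiSC minus 2i, stood at 202 in mEpiSC and 70.2 in 2i. The sum over the other 7 was 373 in Activin+PD, 362 in 2i and 438 in mEpiSC. Since those 7 were left by that choice, their similar sums cannot show whether feeder cells were present. Postn, Lum and Dcn were not above background on any array.

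Over the 8 genes, 4 had their highest level in Activin+PD and 4 in mEpiSC. Of the 14539 genes above background on at least 1 array, 27.5% and 44.2% did, so the mEpiSC count was near the general share. None of the 8 had it in 2i, against 28.3% of those genes. The highest and lowest array differed by at least 2-fold for 7 of the 8 genes, Nodal being the exception, against 12.0% of those genes. Lefty1 and Lefty2 were brightest in Activin+PD, Tdgf1, Pmepa1 and Skil were brightest in mEpiSC and lowest in 2i, and Cer1 was above background in mEpiSC alone. Cer1 thus entered these counts only through its mEpiSC level, which fixed its highest array, and its range rests on levels below background.

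**Figure D1:**
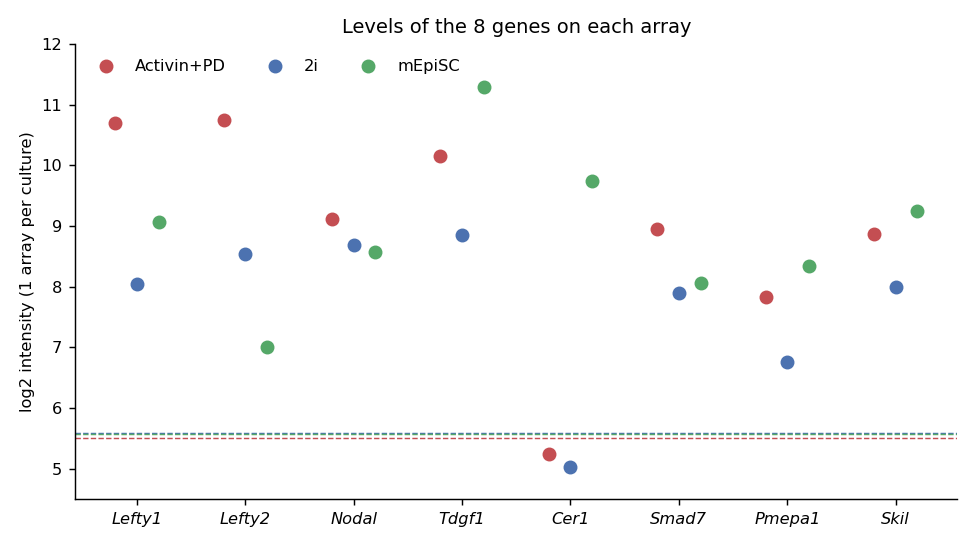
Log2 intensity of the 8 genes (y axis) with 1 point for each culture's array, with dashed lines at each array's background. Lefty1 and Lefty2 lie highest in Activin+PD, at 10.69 and 10.75, and Cer1 lies below background on both mESC arrays.

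Lefty1 encodes a secreted TGF-beta family protein that blocks Nodal and its co-receptor. Its intensity was 1656 in Activin+PD, 265 in 2i and 536 in mEpiSC. Activin+PD stood far above both other arrays, which were also apart from each other. The log2 difference was 2.64 for Activin+PD minus 2i, or 6.25-fold, which ranked 7 from the top of 14022 genes compared. It was 1.02 for mEpiSC minus 2i, or 2.02-fold, at the edge of the 2-fold limit, and -1.63 for mEpiSC minus Activin+PD. Measured against the probe set spread of each comparison, these were 10.8, 2.82 and 4.91 times as large.

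Lefty2 encodes the second Lefty protein, which acts on the same targets. Its intensity was 1724 in Activin+PD, 370 in 2i and 129 in mEpiSC. Here too Activin+PD was highest, but mEpiSC was the lowest array, below 2i. The log2 difference of Activin+PD minus 2i was 2.22, or 4.66-fold and rank 14 of 14022. In mEpiSC minus 2i it was -1.52, a level 2.87-fold lower, and in mEpiSC minus Activin+PD it was -3.74, a level 13.4-fold lower and rank 26 from the bottom of 14383 genes. The 2 Lefty genes thus lay on the same side of 2i in Activin+PD and on opposite sides of it in mEpiSC. They are close paralogs, and how far their probes tell them apart was not tested.

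Among the measured protein-coding genes of chromosome 1, in the order of the RefSeq annotation of GRCm38.p6, Lefty2 comes before Lefty1. Sde2, the measured gene before Lefty2, had an intensity of 454 in Activin+PD, 506 in 2i and 452 in mEpiSC, so that it was alike on all 3 arrays. Tmem63a, the measured gene after Lefty1, which encodes a mechanosensitive ion channel, stood at 194, 64.3 and 277. It was higher than in 2i by a log2 difference of 1.60 in Activin+PD and 2.11 in mEpiSC, and so shared its order between arrays with Tdgf1 and not with Lefty1 or Lefty2. Ephx1, an epoxide hydrolase gene and the next along, stood at 129, 139 and 69.2, lower in mEpiSC than in 2i by 2.01-fold.

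**Figure D2:**
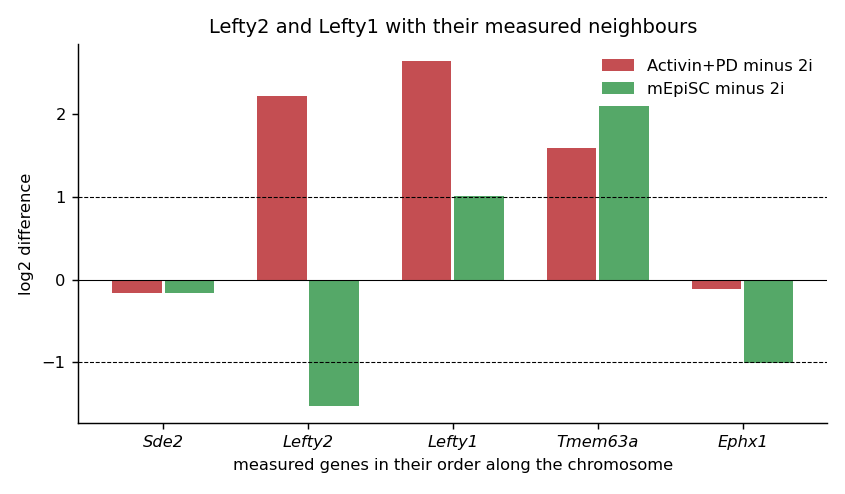
Log2 differences (y axis) of Activin+PD minus 2i and mEpiSC minus 2i for Lefty2, Lefty1 and the measured neighbouring genes in chromosome order (x axis), with dashed lines at 2-fold. Lefty2 changes side between the comparisons, from 2.22 to -1.52, while Lefty1 and Tmem63a lie above 0 in both. Both comparisons use the same 2i array.

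Nodal encodes the ligand itself, whose own transcription is a target of the pathway. Its intensity was 555 in Activin+PD, 411 in 2i and 381 in mEpiSC. The levels were close on all 3 arrays, with Activin+PD slightly above the others. On the log2 scale, Activin+PD minus 2i came to 0.43, mEpiSC minus 2i to -0.11, and mEpiSC minus Activin+PD to -0.54. The 2i and mEpiSC levels differed by less than the probe set spread. Of the 14539 genes above background somewhere, 28.9% had a wider range over the arrays than Nodal.

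Tdgf1, the gene of the co-receptor Cripto, had an intensity of 1136 in Activin+PD, 462 in 2i and 2507 in mEpiSC. Each array was at least 2-fold apart from the others, in the order mEpiSC, Activin+PD, 2i. The log2 difference was 1.30 for Activin+PD minus 2i, 2.44 or 5.43-fold for mEpiSC minus 2i. Between mEpiSC and Activin+PD it was 1.14. These differences were 5.32, 6.77 and 3.45 times the probe set spread. RefSeq lists pseudogenes of Tdgf1, and whether the probe set also reads their transcripts was not tested.

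Cer1 encodes Cerberus, a secreted antagonist that binds Nodal and is made in vivo by the anterior visceral endoderm and definitive endoderm. Its intensity was 37.7 in Activin+PD and 32.6 in 2i, both below background, and 854 in mEpiSC. A measurable level was therefore present on the mEpiSC array alone. It was higher there by at least 17.8-fold than in 2i and by at least 18.8-fold than in Activin+PD, which are log2 differences of at least 4.15 and 4.24. Its place among all genes is not given, since the dimmer levels were below background. A larger share of cells with Cer1 RNA and more of it per cell cannot be told apart in RNA of a whole culture. Of 9 endoderm markers, 7 were above background in mEpiSC, 6 in Activin+PD and 5 in 2i, with summed intensities of 864, 552 and 527. Foxa2 stood at 258 in mEpiSC, 81.7 in Activin+PD and 76.0 in 2i, and Gata6 was above background in mEpiSC alone. These 2 were the endoderm markers at least 2-fold apart in mEpiSC minus 2i. The sum over the other 7 was 470 in mEpiSC, 432 in Activin+PD and 413 in 2i. Since those 7 were left by that choice, their similar sums cannot show whether endoderm cells were present. Sox7 and Ttr were not above background on any array. The part of such cells in the Cer1 level was not tested.

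Smad7, the inhibitory SMAD that blocks the type I receptors, had an intensity of 493 in Activin+PD, 238 in 2i and 267 in mEpiSC. Activin+PD stood above a pair of similar arrays. The log2 difference was 1.05, or 2.07-fold, for Activin+PD minus 2i, and mEpiSC minus Activin+PD came to -0.89. At 0.16, mEpiSC minus 2i was smaller than the probe set spread, so that the 2i and mEpiSC levels were not apart by this measure.

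Pmepa1 encodes a membrane protein that keeps SMAD2 and SMAD3 from the receptor. Its intensity was 227 in Activin+PD, 108 in 2i and 325 in mEpiSC, with 2i the lowest array. It was higher than in 2i by 1.07 on the log2 scale in Activin+PD and by 1.59 in mEpiSC. Skil encodes SnoN, a nuclear corepressor of the SMAD proteins. At 469 in Activin+PD, 256 in 2i and 607 in mEpiSC, it had the same order as Pmepa1. Its log2 difference was 0.87 for Activin+PD minus 2i, short of 2-fold, and 1.24 for mEpiSC minus 2i. The Activin+PD and mEpiSC levels were 0.52 apart for Pmepa1 and 0.37 for Skil, which is 1.57 and 1.12 times the probe set spread.

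By comparison, 5 of the 7 feedback genes compared exceeded their 2i level by 2-fold or more in Activin+PD, against 1.38% of all 14022 genes, and 0 were lower, against 0.820%. Those 5 were Lefty1, Lefty2, Tdgf1, Pmepa1 and Smad7, and the 2 within 2-fold were Skil and Nodal. Their median log2 difference was 1.07, against -0.0059 for all genes. In mEpiSC minus 2i, 5 of 8 were at least 2-fold higher, against 4.53% of 14223 genes, and 1, Lefty2, was lower, against 4.96%. The higher genes were Cer1, Tdgf1, Pmepa1, Skil and Lefty1, and the median was 1.13, against 0.030 for all genes. In mEpiSC minus Activin+PD, 2 of 8 were higher, against 3.59% of 14383 genes, namely Cer1 and Tdgf1, and both Lefty genes were lower, against 5.37%. The median here was -0.087, against 0.042, with genes at both ends of the range. Cer1, below background on both mESC arrays, entered both comparisons with mEpiSC only through its mEpiSC level. It could therefore count there as higher but not as lower, and both medians include it. The 3 comparisons share arrays, so their counts do not stand as separate evidence.

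**Figure D3:**
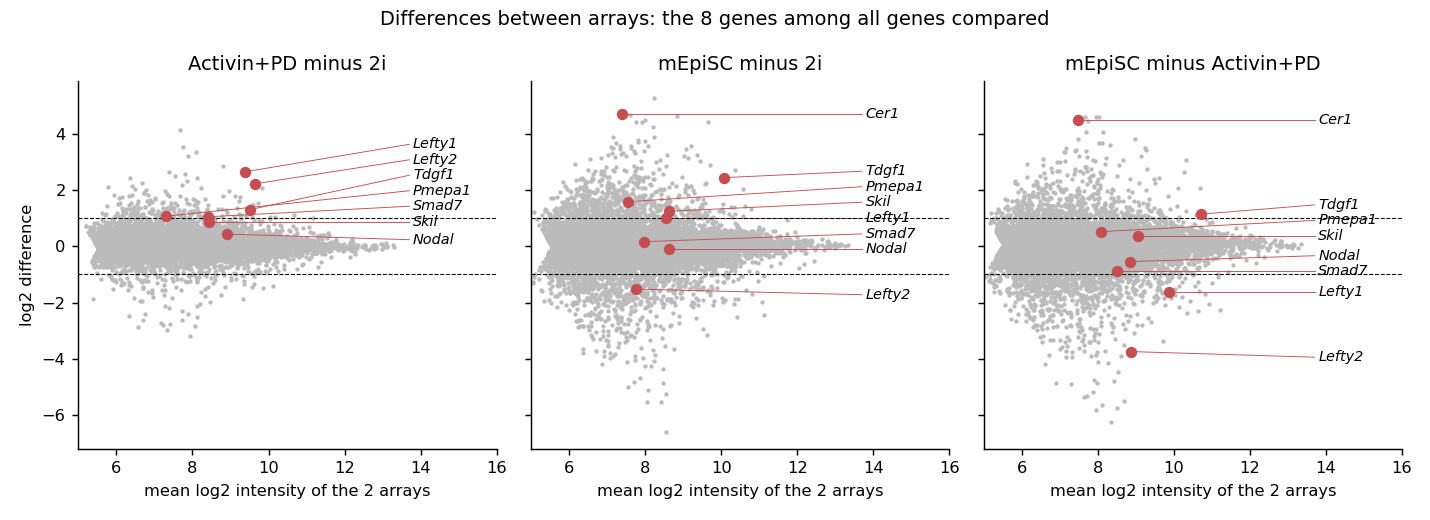
Log2 difference (y axis) against mean log2 intensity (x axis) for every gene compared (grey) and for the 8 feedback genes (red) in each of the 3 comparisons, with dashed lines at 2-fold. Cer1 is drawn at its measured differences although its dimmer value is below background, and it is not drawn for Activin+PD minus 2i.

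Promoter sequences from RefSeq, 250 bases before to 50 after the transcription start in build GRCm38.p6, were matched for 3 of the 8 genes. All 3 are shown, to set the letters of the start regions beside the levels given above. Lower case runs 5′ to 3′ on the strand of the gene, and capitals mark a SMAD element. The Cer1 window is chr4:82885102-82885401 on the minus strand, that of Tdgf1 is chr9:110946109-110946408 on the minus strand, and that of Nodal is chr10:61417722-61418021 on the plus strand.
Cer1: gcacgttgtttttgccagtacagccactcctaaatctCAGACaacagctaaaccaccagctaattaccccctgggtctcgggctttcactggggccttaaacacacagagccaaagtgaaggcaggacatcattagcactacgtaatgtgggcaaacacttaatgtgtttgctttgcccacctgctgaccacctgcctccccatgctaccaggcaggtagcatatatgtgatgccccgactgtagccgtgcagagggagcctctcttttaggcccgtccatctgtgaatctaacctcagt
Tdgf1: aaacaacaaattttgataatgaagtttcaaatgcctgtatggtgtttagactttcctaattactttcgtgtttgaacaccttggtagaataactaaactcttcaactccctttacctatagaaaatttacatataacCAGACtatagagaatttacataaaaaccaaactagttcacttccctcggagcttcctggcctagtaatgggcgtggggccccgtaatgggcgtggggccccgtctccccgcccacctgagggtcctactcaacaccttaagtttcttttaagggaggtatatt
Nodal: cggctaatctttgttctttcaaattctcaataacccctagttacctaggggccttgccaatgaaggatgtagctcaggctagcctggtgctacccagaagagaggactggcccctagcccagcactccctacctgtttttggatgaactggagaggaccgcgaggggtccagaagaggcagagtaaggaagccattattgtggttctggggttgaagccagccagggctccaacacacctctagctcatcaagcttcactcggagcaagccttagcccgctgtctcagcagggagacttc

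Both strands were searched for CAGAC, the core of the SMAD element, AATCCACA, an element bound by FOXH1, and TCAAAG, the core of the element of TCF/LEF factors, which work with beta-catenin. These letters do not overlap one another's matches. CAGAC was found once in the Cer1 window, starting 213 bases before the transcription start, and once in the Tdgf1 window, starting 113 bases before it, both on the strand shown. It was not in the Nodal window. Of 32851 promoter windows of the same length, 49.6% hold CAGAC, so a match in 2 of 3 windows is close to what windows hold in general. AATCCACA and TCAAAG, which 0.855% and 16% of windows hold, were in none of the 3. The windows of Cer1, Nodal and Tdgf1 were 51.7%, 54.0% and 41.7% G or C.

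Further genes of the pathway were described from 3 lists. The first held pathway components, namely receptors, SMADs, ligands, ligand convertases, Foxh1 and Trim33. Of 19 compared, 17 were within 2-fold in Activin+PD minus 2i and 2 were lower, with a median of 0.003, while 0.820% of all genes were lower. These were Tgfbr3, a co-receptor, at an intensity of 116 against 657, and Acvr1b, the type I receptor of Activin and Nodal, at 182 against 419. In mEpiSC minus 2i, 1 was higher and 4 lower, with a median of 0.095, against 4.53% and 4.96% of all genes. Tgfb1, a ligand gene, was the higher one at 391 against 156, and Gdf3, a Nodal-related ligand gene, was lowest at 54.9 against 812. In mEpiSC minus Activin+PD, 1 was higher and 2 lower, with a median of 0.18, against 3.59% and 5.37% of all genes. The lower genes were Gdf3, by 13.1-fold, and Pcsk6, the gene of a convertase that cleaves the Nodal precursor, at 106 against 425.

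Among 19 other antagonists and inhibitors, none was 2-fold apart in Activin+PD minus 2i (median 0.11), where only 2.20% of all genes were. In mEpiSC minus 2i, 2 were higher and 1 lower (median 0.24), against 4.53% and 4.96% of all genes. Fst, whose product follistatin binds Activin, stood at 974 in mEpiSC and 118 in 2i, and at 77.4 in Activin+PD. Chrd, a BMP antagonist gene, was at the limit with 102 against 50.8, and Fstl1, a follistatin-like gene, was lower at 272 against 871. In mEpiSC minus Activin+PD, 1 was higher and 2 lower (median 0.094), against 3.59% and 5.37% of all genes, and 16 were within 2-fold. Fst was higher by 12.6-fold, and Tmeff1, whose product inhibits Nodal signalling in Xenopus, stood at 479 against 1255, with a second probe set not above background on any array.

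Of 18 compared genes on a list of other reported targets, Activin+PD exceeded 2i by 2-fold or more for 4 and was that much lower for 0, with a median of 0.11, against 1.38% and 0.820% of all genes. Fgf15, an FGF ligand gene, stood at 419 against 66.9. Its second probe set, above background on all 3 arrays, gave a log2 difference of only 0.13, and 0.093 in mEpiSC minus 2i. Fgf15 thus counts as higher in both comparisons through its brighter probe set alone. Dusp6, an ERK phosphatase gene, stood at 543 against 92.0, with a second probe set that was not above background on any array. Otx2, an epiblast transcription factor gene, was higher by at least 4.68-fold. In mEpiSC minus 2i, 12 of 19 were higher and 2 lower, with a median of 1.76, against 4.53% and 4.96% of all genes. In mEpiSC minus Activin+PD, 9 were higher and 3 lower, with a median of 0.99, against 3.59% and 5.37%. Otx2 was below background in 2i, and Gata6 was below it on both mESC arrays. Otx2 therefore entered both comparisons with 2i, and Gata6 both comparisons with mEpiSC, only through the brighter array. Each could count there as higher but not as lower. Gdf3 is on this list as well as on that of pathway components, and is among the lower genes of both mEpiSC comparisons. Otx2 is also among the primed markers above, and Foxa2, Gata6 and Sox17 are among the endoderm markers. Their values are the same in both places and are not separate observations. The mesendoderm genes Mixl1, Lhx1 and Eomes led the last comparison, at 673 against 63.9, 362 against 46.0 and 692 against 116. Nanog, a pluripotency factor gene, was lower in it at 1082 against 5149, and so was Ccn2, a matricellular protein gene, at 98.5 against 402, whose other probe set stayed below background throughout.

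**Figure D4:**
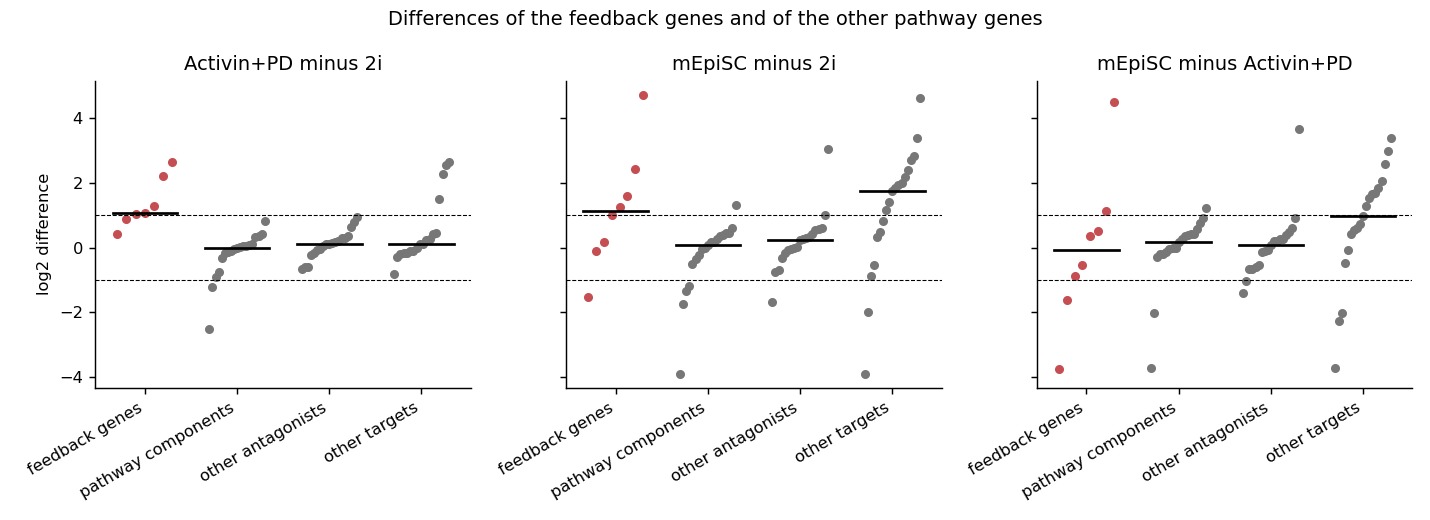
Log2 differences (y axis) of the feedback genes (red) and of the 3 further lists (grey) in each comparison, 1 point per gene compared, sorted within its list, with a bar at the list median and dashed lines at 2-fold. The feedback genes have medians of 1.07, 1.13 and -0.087, and the pathway components have medians of 0.003, 0.095 and 0.18.

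The genes with the most similar patterns were found by Euclidean distance between log2 levels centred on each gene's own mean over the 3 arrays, among 14531 other genes. Few genes resembled the Lefty genes. For Lefty1, 1 gene lay within a distance of 0.5. It was Erbb3, a receptor tyrosine kinase gene, at 0.467, with intensities of 610 in Activin+PD, 144 in 2i and 295 in mEpiSC. Actn3, an actin-binding protein gene, came next at 0.560. For Lefty2, 1 gene also lay within 0.5, Eprn at 0.419, with 462, 145 and, below background, 36.4. That distance therefore rests in part on an mEpiSC level not measured above background. Nup62cl followed at 0.539.

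For Cer1, the nearest genes were Slc39a8, a metal ion transporter gene, and Epha1, an ephrin receptor gene. Slc39a8 stood at 40.9, 38.7 and 989 and, like Cer1, was above background in mEpiSC alone, so the likeness rests on mESC levels that were not measured above background and no distance is given. For Tdgf1 there were 38 genes within 0.5, led by Tcfl5, a transcription factor gene, at 0.141 and Ptprn, a receptor-type phosphatase gene, at 0.143. The milder patterns were common. Smad7 had 529 genes within 0.5, Skil had 462 and Pmepa1 had 166. Their nearest were Galnt7 and Ets2 for Smad7, Rnf122 and Penk for Skil, and Pdlim7 and Tagln2 for Pmepa1, at distances from 0.028 to 0.062. Tagln2 had a second probe set with the same order of arrays and smaller differences, 0.52 and 0.89 against 2i. A member with a narrow range has more genes near it by the construction of the measure. Among the 8 genes, Pmepa1 and Skil were closest to each other, at 0.242, while Lefty1 and Lefty2 were 1.92 apart.

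**Figure D5:**
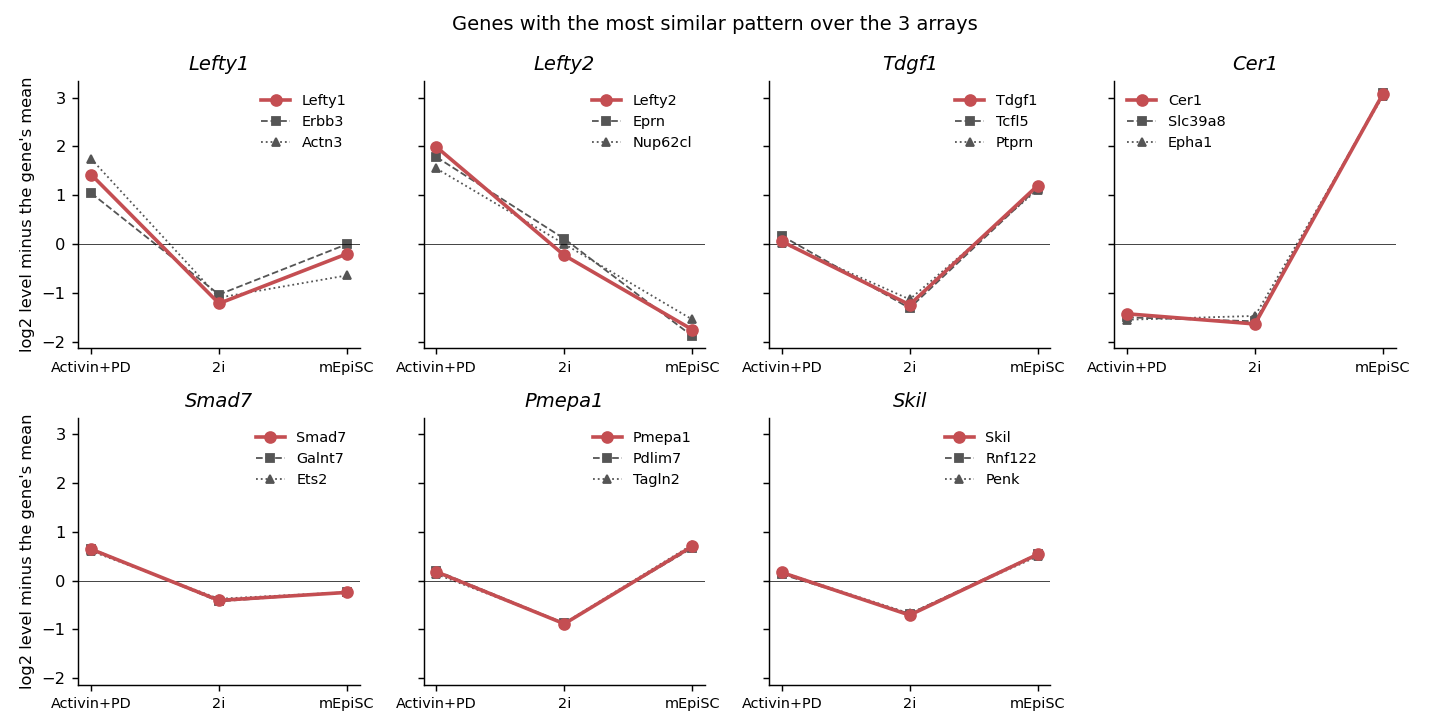
Log2 level minus the gene's own mean (y axis) on each array (x axis) for the 7 feedback genes with a range of at least 1 (red) and the 2 genes most like each (grey). The mESC levels of Cer1 and the mEpiSC level of Eprn are below background. The lines of Smad7, Pmepa1 and Skil coincide with those of their nearest genes, while those of Lefty1 and Lefty2 are 0.419 or more from theirs.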

How the data were processed

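RNA of 3 cultures was measured on 1 array each. The deposited table holds 1 intensity per probe set and array, on a linear scale from the values, made with RMA per the submitters' processing notes. The series' design text names GeneSpring GX 11.5. A constant may have been added before deposit, which would shrink the differences of dim genes, and quantile normalisation hides differences in total RNA. Log2 of each intensity was taken here. Of 33793 probe sets, 23521 had 1 gene symbol, 1814 several and 8458 none listed. For 23328 of the 23521, the symbol was taken from RefSeq by Entrez identifier, whether or not it differed. A gene with several probe sets was represented by the one with the highest mean. The arrays' number limits the precision, and no p-value was computed.

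The genes and lists were chosen with earlier results of these data known. From each list, up to 3 genes per direction with the largest differences among those at least 2-fold apart were eligible to be named, and for each feedback gene with a log2 range of at least 1 the 2 nearest genes. A gene below background on the dimmer array has a bound, the brighter level minus that array's background. Promoters came from RefSeq. Counting was tested on simulated data. Python 3.11.15, pandas 2.3.3 and statsmodels 0.14.6 were used. The alternatives were 16 subtracted from each intensity, quantile normalisation, median centring, lowess removal, values below background raised to it, the 99th or 90th percentile as background, no filter, and the mean of a gene's probe sets.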

Additional observations from a re-analysis of the deposited data

How the results depend on the processing

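The counts of feedback genes at least 2-fold apart were the same under all 9 alternatives for Activin+PD minus 2i, at 5, and for mEpiSC minus Activin+PD, at 4. For mEpiSC minus 2i the count was 6 and became 5 with median centring, where Lefty1 stood at 0.997. Counts over all genes ranged from 290 to 458 around 308, from 1266 to 1706 around 1349 and from 1217 to 1660 around 1289, each highest with 16 subtracted. Of 184 recomputed differences of single feedback genes, 181 moved by less than the probe set spread and 0 changed sign among those 2-fold apart. The 3 that moved further were those of Cer1, at 5.66 and 5.27 with 16 subtracted and at 4.15 in mEpiSC minus 2i with values below background raised. Each feedback gene had 1 probe set, so its other probe sets could not be tried, and the mean of probe sets could change none of its values or counts. The background percentile alters only which genes are compared and not a difference. Raising values to background could move Cer1 alone. Part of the 181 was therefore fixed in advance. No paired analysis was possible because each group has 1 array. Signal over background limits Cer1 on both mESC arrays.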

Other observations

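Some measured neighbours of other feedback genes, in the RefSeq gene order of GRCm38.p6, also differed between the arrays. Lrrc2, next to Tdgf1, stood at an intensity of 418 in Activin+PD, 241 in 2i and 58.9 in mEpiSC, a log2 difference of -2.04 for mEpiSC minus 2i. Around Cer1, Zdhhc21 was at 0.54 in that comparison, while Nfib, a transcription factor gene, and Ttc39b, the genes next but 1 on either side, were at -1.80 and -1.79. The measured genes on either side of Nodal, Pald1 and Eif4ebp2, were within 2-fold at -0.26 and 0.30. Of 28 measured neighbours, up to 2 on each side of a feedback gene, 23 were compared in mEpiSC minus 2i. Of these, 1 was at least 2-fold higher and 4 were lower, against 4.53% and 4.96% of all genes. In Activin+PD minus 2i, 1 of 25 was higher and 0 lower, against 1.38% and 0.820%. In mEpiSC minus Activin+PD, 0 of 25 were higher and 3 lower, against 3.59% and 5.37%. All neighbours compared of Smad7, Pmepa1 and Skil were within 2-fold in all 3 comparisons. The genes named here were picked after their values were seen, and no difference was tested.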
